A study of Homo sapiens with 30 samples.

Results

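The regions described here are 741 promoter-proximal MYC binding sites that MYC ChIP-Seq found in both samples of EGFP-expressing G401 cells. They were chosen by EGFP peak calls: each is a peak of the second EGFP sample that shares at least 1 bp with a peak of the first, and its summit lies no more than 1 kb from an annotated start of transcription on hg19. They make up 13.7% of the 5396 peaks of the second sample and 82.6% of the 897 regions shared by both samples; the first sample had 940 peaks. G401 is a human rhabdoid tumor line that lacks SNF5 (encoded by SMARCB1). The cells carried a doxycycline-inducible pInducer20 lentiviral construct for EGFP, OmoMYC or SNF5, were selected with G418 and used as pooled populations, and received 1 μg/ml doxycycline for 24 h before collection, EGFP controls included. ChIP-Seq was done in 2 samples per construct, and PRO-Seq and ATAC-Seq in 3 each. Transcript starts within 1 kb of the summits linked the regions to 877 of 20367 genes (4.31%). The EGFP peaks themselves chose these regions, so their enrichments are given as a description and were not tested.

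MYC is a transcription factor that dimerizes with MAX through its basic helix-loop-helix leucine zipper, and the dimer recognizes the E-box CACGTG in open promoters. Its best known targets make ribosomes, process RNA, fold proteins and build nucleotides. OmoMYC is a mutant of the MYC dimerization domain that competes with MYC for MAX and DNA. SNF5 is a core subunit of the SWI/SNF chromatin remodeler and binds MYC within the same domain. PRO-Seq maps engaged RNA polymerase at base resolution. Many polymerases halt shortly after the start, and the ratio of their density near the promoter to that in the gene body is the pausing index.

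The E-box was frequent in these regions. CACGTG reads the same on both strands, and it was present within 100 bp of the summit in 378 of 741 regions, or 51.0% (exact 95% confidence interval 47.3% to 54.7%, counting error only). The share was 18% (16.8% to 19.3%) among the 3613 promoter peaks of the second sample alone. It was higher, 63.5% (99 of 156), in regions of both samples not at a start, and 31.6% at such peaks of the second sample alone. In windows of equal length centred on all 20582 transcript starts of the table it was 5.91%. Starts within 1 kb of these summits, in the same windows, had 20.3% (178 of 878). Positions 10 kb to each side of the summits had 2.5%. Sequence played no part in the choice of regions. The sites below come from the most enriched regions, where the E-box is the feature they share, and from SNHG15, NCL, METTL1 and IPO7, whose transcription is described further on. Each is 30 bases of hg19, 5′ to 3′ on the strand of the nearest gene, with the E-box nearest the summit in capitals. The PLD6 and GTF3A stretches begin with another CACGTG, left in lower case. In 60 of the 741 regions there were 2 or more E-boxes within 100 bp of the summit.
PLD6, chr17:17109803-17109832, minus strand: cacgtggcctggCACGTGgccgttggcgct
GTF3A, chr13:27998819-27998848, plus strand: cacgtgtctcggCACGTGgcagcgcgcctg
GET4, chr7:915940-915969, plus strand: ccgcctctgggcCACGTGttgcctgcggac
WDR43, chr2:29117524-29117553, plus strand: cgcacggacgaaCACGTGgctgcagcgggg
G6PC3, chr17:42148038-42148067, plus strand: tgcaacagtggcCACGTGgggccctgagga
GDI2, chr10:5855785-5855814, minus strand: gcgctcctcgccCACGTGgccgccgcacgc
PRMT1, chr19:50180826-50180855, plus strand: cggccaggccccCACGTGgccgctgcgcgg
EARS2, chr16:23568669-23568698, minus strand: cagggagaagccCACGTGtgctattccatc
CCDC47, chr17:61851197-61851226, minus strand: cttgcctctggcCACGTGgtcccacacagc
SNHG15, chr7:45026136-45026165, minus strand: catcctgggcccCACGTGttgcctgaccat
NCL, chr2:232328551-232328580, minus strand: ctggcaagccgaCACGTGgtgggccccgga
METTL1, chr12:58165885-58165914, minus strand: ggcctgcgcctcCACGTGgatttggtagag
IPO7, chr11:9406049-9406078, plus strand: agctcaggcagcCACGTGggctgcggactg

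The bases next to the E-box had other shares than at starts in general. CCACGTGG and CCACGTGC, each counted with its reverse complement, made up 27.2% and 27.0% of the E-boxes nearest the summits of the 378 regions, against 9.14% and 12.2% of 1324 E-boxes around all starts. The opposite held for octamers that end in A: CCACGTGA had 9.52% against 26.7%, TCACGTGA 2.38% against 17.4%, GCACGTGA 2.38% against 9.97% and ACACGTGA 1.85% against 5.97%. E-boxes at the promoter peaks of the second sample alone lay between: CCACGTGG had 13.7%, CCACGTGC 17.7%, CCACGTGA 18.1%, TCACGTGA 8.60%, GCACGTGA 8.30% and ACACGTGA 5.53%. The related sequence CACGCG was found on either strand in 35.9% of the regions. It was in 27.9% of the promoter peaks of the second sample alone and 10.7% of all starts. Regions of both samples not at a start had 35.3%, and windows centred on the starts within 1 kb of these summits 23.9%. CATGTG and CACGAG, also on either strand, had 12.8% and 14.0%, against 6% and 5.22% of all starts, and CAGCTG, an E-box of other helix-loop-helix factors, had 11.2% against 13.0%. For CATGTG and CACGAG, the promoter peaks of the second sample alone had 7.28% and 11.7%. Regions of both samples not at a start had 20.5% and 19.2%, and positions 10 kb to each side of the summits 12.4% and 4.18%. The median GC content within 100 bp was 69.2% in these regions, 69.7% in the promoter peaks of the second sample alone and 64.7% at all starts.

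The summits lay close to starts, and the E-boxes close to summits. The median distance from summit to the nearest start was 156 bp, and 490 regions (66.1%) had it within 250 bp. Summits were downstream of the start in 440 regions, upstream in 300 and on it in 1. The summits of both EGFP samples were a median of 48 bp apart. In regions with an E-box, its centre was a median of 21 bp from the summit, and in 203 of 378 (53.7%) within 25 bp. In 144 regions (19.4%) starts on opposite strands shared the site, among them NUTF2 with CENPT, ECE2 with ALG3 and SLC3A2 with SNHG1. By the annotation of the hg19 build, 241 summits fell in a UTR, 185 in an intron, 80 in a non-coding exon, 70 in a coding exon and 165 outside genes. Just inside the 1 kb limit were EIF4B (917 bp) and HNRNPK (978 bp), and nearest outside it CBX3 (1016 bp), TSR1 (1031 bp) and BRD2 (1033 bp). BRD2 also has a region of its own inside the limit, 11 bp from another listed start.

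**Figure D1:**
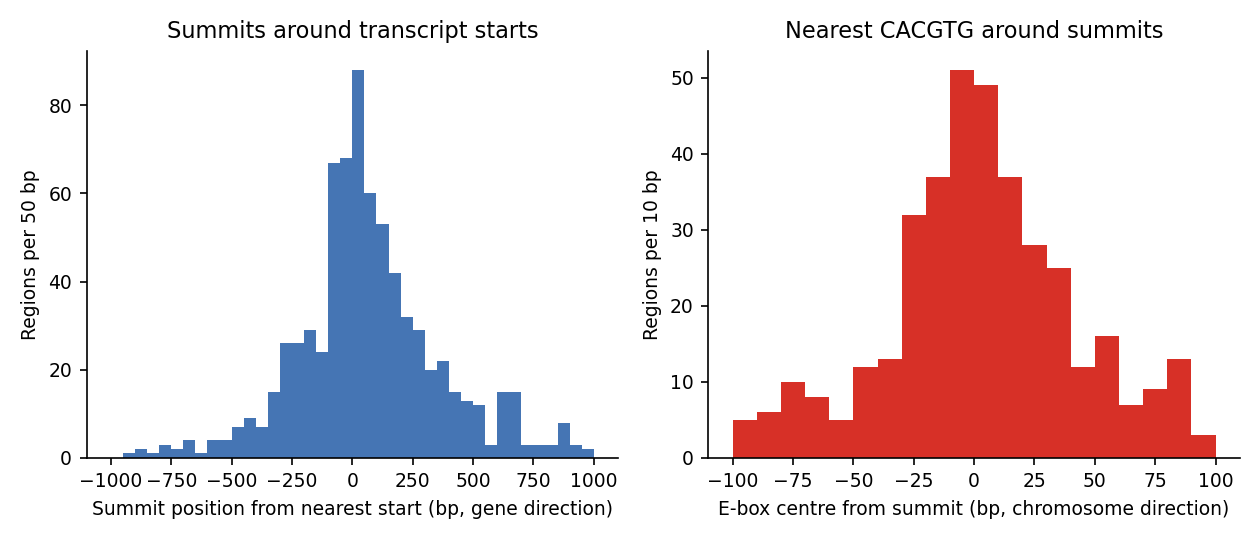
Left, number of regions per 50 bp by the distance of the summit from the nearest transcript start in bp, with positive values downstream. Right, number of the 378 regions with CACGTG per 10 bp by the distance of the nearest E-box centre from the summit. Both distributions are centred near 0, with a median distance of 156 bp on the left and 21 bp on the right.

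Fold enrichment over the local background, the authors' value for each peak, ranged from 3.07 to 17.4 in the first EGFP sample (median 5.62) and from 3.02 to 20.3 in the second (median 8.39). The median of the promoter peaks that only the second sample had was 4.94. The highest mean was at PLD6, a mitochondrial phospholipase (chr17:17109315-17110429, summit in an intron), with 17.4 and 17.6. GTF3A, the factor that starts transcription of 5S ribosomal RNA (chr13:27998488-27999218, summit in the UTR), had 10.6 and 20.3, and GET4, which delivers tail-anchored membrane proteins, had 12.7 and 18.1. WDR43, a component of the machinery that processes the small ribosomal subunit, had 11.7 and 17.8. The next were G6PC3, a glucose-6-phosphatase (10.7 and 18.4), GDI2, a Rab regulator (8.76 and 18.8), PRMT1, an arginine methyltransferase (12.3 and 15.2), and EARS2, the mitochondrial glutamyl-tRNA synthetase (11.0 and 16.3). CCDC47, a protein of the endoplasmic reticulum, had 11.9 and 15.1, and MTHFD2, a mitochondrial folate enzyme, had 10.0 and 16.9. Of these 10 regions, MTHFD2 was the exception in having no CACGTG within 100 bp of the summit. Divided by mean enrichment into 4 groups of 185 or 186 regions, the share with an E-box was 67.0%, 48.1%, 49.2% and 39.8% from the highest to the lowest.

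In SNF5-expressing cells few of these regions still had a called MYC peak. The first SNF5 sample had a peak at 99 of 741 (13.4%, exact interval 11% to 16%) and the second at 15 (2.02%, 1.14% to 3.32%). These intervals cover counting error over regions within 1 sample and not the spread between samples. Each sample lay outside the interval of the other. Neither OmoMYC list held a peak: each had 1 line with the same placeholder position, which was dropped. The EGFP samples had all 741 because the rule required it, so no test was made against them; between SNF5 and OmoMYC an exact two-sided permutation test with 2 samples against 2 cannot go below 0.33. The peak lists carry no read counts and show no binding below the authors' threshold, and the part of sequencing depth in these counts was not tested.

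The regions that kept a peak with SNF5 were mostly the strongest ones in EGFP cells. A peak in either SNF5 sample was present at 35.7% of the most enriched group and at 9.19%, 8.11% and 3.76% of the groups below it. It was present at 18.8% of regions with an E-box (15% to 23.1%) and at 9.37% of those without (6.57% to 12.8%). The intervals are again for counting error only, since regions are not replicates of a construct, and the difference was not tested. At 9 promoters MYC had a peak in both SNF5 samples. At PLD6 the enrichments were 10.7 and 5.53 with SNF5 beside 17.4 and 17.6 with EGFP, and at GTF3A 5.90 and 5.11 beside 10.6 and 20.3. The others were ING5, a subunit of histone acetyltransferase complexes, MRPL3 of the mitochondrial ribosome, SNX5, a sorting nexin, MFSD3, a membrane transporter family protein, ZNF131, a zinc finger protein, SLC7A5P2, a pseudogene, and BRWD1, a bromodomain protein. Where the first SNF5 sample had a peak, its enrichment was below both EGFP values in 79 of 99 regions and above both in 1, C19orf48 (6.78 beside 6 and 6.30). In the second sample it was below both in 13 of 15. The rule required a call in both EGFP samples, which favours high EGFP values, so these counts are a description and were not tested. The 2 SNF5 lists held 137 and 27 peaks in all, 72.3% and 55.6% of them at these promoters.

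**Figure D2:**
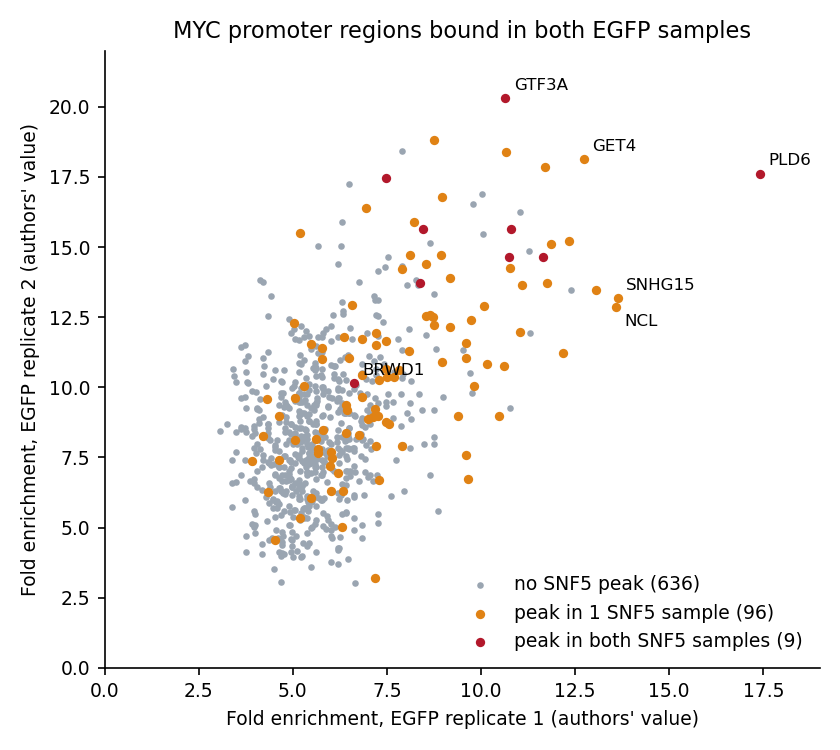
Each point is 1 of the 741 regions, placed by the authors' fold enrichment in EGFP replicate 1 (horizontal) and EGFP replicate 2 (vertical). Grey points had no SNF5 peak (636), orange points a peak in 1 SNF5 sample (96) and red points a peak in both (9); red and orange points lie mostly at high enrichment, with PLD6 and GTF3A at the top.

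**Figure D3:**
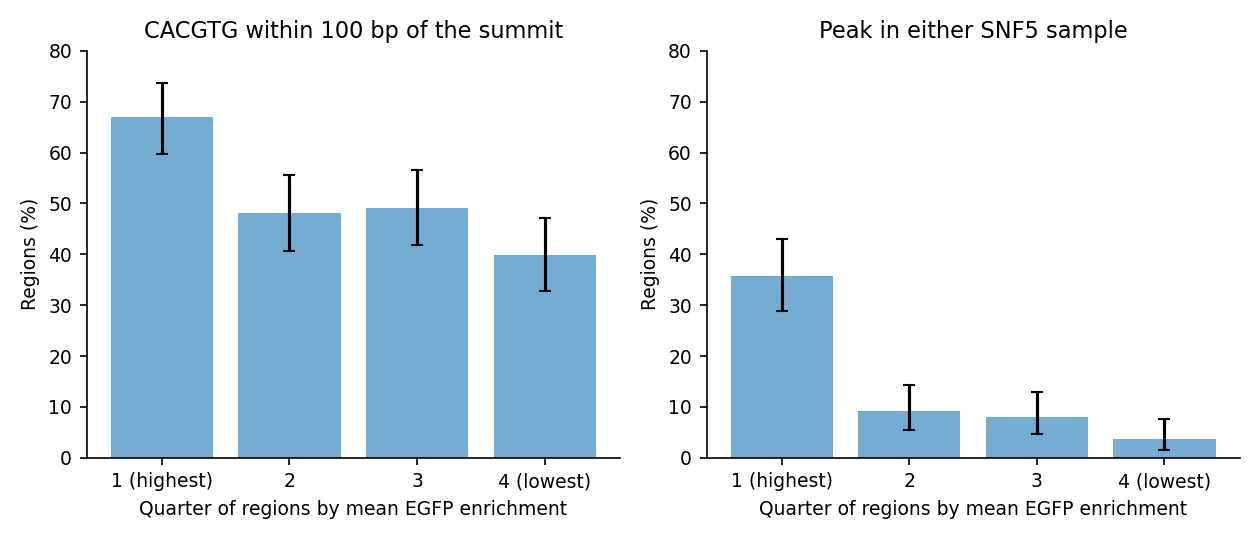
Percent of regions with CACGTG within 100 bp of the summit (left) and with a peak in either SNF5 sample (right), in 4 groups of regions ordered by mean EGFP enrichment. Bars are shares and lines exact 95% confidence intervals for counting error. The E-box share goes from 67.0% to 39.8% and the SNF5 share from 35.7% to 3.76%.

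ATAC-Seq, which marks accessible chromatin, gives a view of the same promoters that the rule did not use. The peaks are on GRCh38, and 724 of the 877 linked genes had a RefSeq start on that build. A peak within 1 kb of the start was present for 81.2%, 89.1% and 69.8% of them in the 3 EGFP samples, 66.6%, 92.8% and 75.3% in the OmoMYC samples and 95%, 93.0% and 86.9% in the SNF5 samples. Over all 15437 genes with a start the shares were 33.2% to 56.8%. OmoMYC and EGFP samples overlapped, and the lowest SNF5 sample was below the highest EGFP sample. In all 9 samples 412 of the 724 genes (56.9%) were open, and in none 24 (3.31%), against 27.7% and 40.7% of all genes. Peak lists held 22722 to 33596 peaks with SNF5 and 7260 to 23684 in the other samples, and the part of list size in the shares was not tested. No linked gene was without a peak in all EGFP samples and with one in all OmoMYC samples. Only 5 of all 15437 genes had this pattern, so its absence does not set the linked genes apart. With SNF5, 9 of the 724 linked genes had a peak in all samples and none in the EGFP samples. This was not a larger share than the 284 of all 15437 genes that did. Genes without a peak in any EGFP sample were 65 of the 724 and 7496 of the 15437. Among the 9 were C1QBP, a mitochondrial matrix protein, GAPDH, the glycolytic enzyme, GEMIN4 of the SMN complex, and GNB2L1, which encodes the ribosomal scaffold RACK1.

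PRO-Seq samples had 28444943 to 46957634 gene body reads and 518900 to 3386528 promoter-proximal reads. Promoter-proximal reads per 100 gene body reads depended on the replicate number, from 1.49 to 2.01 in the samples numbered 1, 9.44 to 11.5 in those numbered 2 and 4.40 to 5.41 in those numbered 3, so values are compared within numbers and the number was a block in each test. SMARCB1, which marks the introduced SNF5, had 4, 1 and 6 gene body reads with EGFP, 2, 5 and 4 with OmoMYC and 2870, 4467 and 3440 with SNF5. The linked genes were highly transcribed. Of the 877, 831 (94.8%) passed the minimum of 10 mean gene body counts, against 73.9% of all genes. In both regions 822 linked genes passed this minimum, as did 11171 of all genes. Among these 11171, the median gene body density of the linked genes in EGFP cells lay at percentile 75.7. The median pausing index of the 822 in the EGFP samples was 7.45, 42.2 and 23.7, against 9.32, 44.8 and 27.8 over the 11171. In these bulk samples, fewer transcribing cells and less transcription per cell cannot be told apart, and normalised counts, which are gene body reads per 1000000 after scaling, show a gene's share of all gene body reads, not absolute amounts.

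The bodies of genes at these promoters lost polymerase with both constructs, by a small amount per gene. With OmoMYC, gene body counts fell for 160 of 831 tested genes and rose for 8, where 4.42% of all 15060 tested genes fell and 4.1% rose (edgeR's quasi-likelihood test, Benjamini-Hochberg over all genes, 0.05). With SNF5, 345 fell and 23 rose, where 16.5% of all genes fell and 17.6% rose. The median log2 fold change was −0.15 with OmoMYC, with −0.19, −0.21 and −0.045 by replicate number, and −0.20 with SNF5, with −0.17, −0.24 and −0.17. Genes at the promoter peaks of the second EGFP sample alone had medians of −0.071 and −0.12, and genes with no promoter peak 0.051 and 0.046. Linked genes are deeply read, so the shares were also taken over genes with at least as many mean reads as their median: among these, 24.0% of linked genes and 8.20% of all genes fell with OmoMYC, and 37.7% and 20.2% with SNF5. From the highest to the lowest group of regions by enrichment, the medians were −0.19, −0.15, −0.13 and −0.13 with OmoMYC and −0.23, −0.20, −0.19 and −0.18 with SNF5. Both comparisons use the same EGFP samples.

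These counts rested on the block and, for OmoMYC, on particular samples. Without the block, no linked gene was lower with either construct, and with OmoMYC none was lower without EGFP replicate 1, EGFP replicate 2, OmoMYC replicate 1 or OmoMYC replicate 2, while 480 were lower without replicate 3. With SNF5 the number lower ran from 45 to 543 as samples were left out. The median ran from −0.20 to −0.11 with OmoMYC and from −0.23 to −0.16 with SNF5 over all fits.

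**Figure D4:**
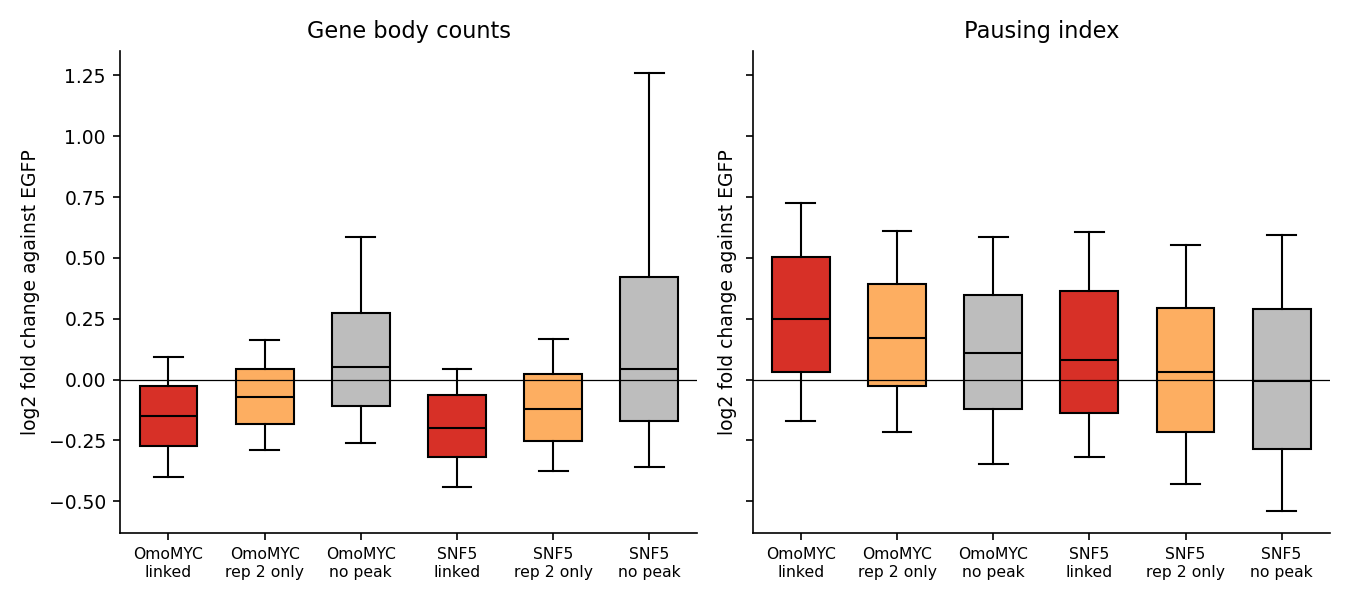
Log2 fold change against EGFP of gene body counts (left) and of the pausing index (right) for genes linked to the regions (red), genes at promoter peaks of EGFP replicate 2 alone (orange) and genes with no promoter peak (grey). Boxes show the median and the middle 50% of genes, and whiskers the percentiles 10 and 90. Linked genes have medians of −0.15 and −0.20 for gene body counts and 0.25 and 0.079 for the pausing index.

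Of the 15 gene lists examined, cytosolic ribosomal proteins had the most linked genes: 42 of 76 in the table (55.3%) were linked, against 4.31% of all genes, although only 9 of the 42 had CACGTG within 100 bp of the summit. With OmoMYC, 25 of 39 tested fell and none rose, with a median of −0.41; with SNF5, 14 fell and none rose, with a median of −0.20. RPLP2, an acidic protein of the ribosomal stalk, had 60.5, 58.6 and 62.4 normalised gene body counts with EGFP, 33.4, 28.6 and 47.8 with OmoMYC and 46.9, 41.6 and 51.3 with SNF5. The 3 groups did not overlap between EGFP and either construct, and OmoMYC was lowest within each replicate number. The log2 fold change was −0.75 with OmoMYC (SE 0.11, adjusted p = 0.016) and −0.38 with SNF5 (SE 0.11, adjusted p = 0.025). RPLP1, its partner in the stalk, had 47.1, 41.9 and 46.1 with EGFP, 28.4, 24.6 and 36.1 with OmoMYC and 44.9, 46.8 and 47.3 with SNF5. It fell with OmoMYC (−0.61, SE 0.10, adjusted p = 0.022) but its change with SNF5 was 0.04 (SE 0.10, adjusted p = 0.77). RPL35 fell with both (−0.66, adjusted p = 0.013, and −0.50, adjusted p = 0.0029). RPL5, RPS23 and RPS24 had −0.39, −0.08 and −0.35 with OmoMYC, of which RPS24 passed (adjusted p = 0.030).

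The difference between the constructs was tested directly. Over all linked genes, 52 gene bodies were higher with SNF5 than with OmoMYC and 100 lower, where 11.5% and 7.38% of all genes were. Gene body counts of 10 of the 39 ribosomal protein genes were higher with SNF5 than with OmoMYC and none was lower. RPLP1 differed by 0.65 (SE 0.10, adjusted p = 0.0029) and RPS12 by 0.54 (SE 0.11, adjusted p = 0.0089). Of the ribosomal protein genes without one of these regions, 21 of 30 tested fell with OmoMYC and 7 of 30 with SNF5. Between the constructs, 5 of these 30 were higher with SNF5 and none was lower. Their median difference was 0.21, beside 0.17 for the linked ones. Without replicate 1 or replicate 2, none of the linked ribosomal protein genes was lower with OmoMYC, and 39 were without replicate 3; with SNF5 the numbers were 3, 1 and 30. These genes have many processed pseudogenes. The authors dropped alignments of mapping quality under 10.

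Factors that build ribosomes in the nucleolus were bound at nearly the same share, 41 of 80 (51.3%), and 24 of the 41 had the E-box. With OmoMYC 15 of 39 fell (median −0.29) and with SNF5 26 of 39 (median −0.28), and none rose. Nucleolar genes without one of these regions had nearly the same counts, 13 of 39 and 24 of 39. Between the constructs, 4 of these 39 were lower with SNF5 and none was higher. NCL (nucleolin; chr2:232328317-232329506, summit in the UTR), whose E-box is shown above, had 212, 286 and 245 normalised gene body counts with EGFP, 148, 169 and 204 with OmoMYC and 167, 183 and 178 with SNF5. All OmoMYC and SNF5 samples were below all EGFP samples, and the fold changes were −0.51 (SE 0.09, adjusted p = 0.025) and −0.48 (SE 0.09, adjusted p = 0.0044). RRP1, a processing factor of the large subunit, had 98.2, 66.6 and 79.6 with EGFP, 63.9, 44.2 and 75 with OmoMYC and 61.4, 40.9 and 58.9 with SNF5. Its groups overlapped with OmoMYC but it was lower within each replicate number (−0.43, adjusted p = 0.035), and it fell by 0.61 on the log2 scale with SNF5 (adjusted p = 0.0022). NOLC1, a nucleolar chaperone, and NOP56 and FBL (fibrillarin), core proteins of the box C/D small nucleolar RNA complex, fell with OmoMYC by 0.65, 0.58 and 0.39 (adjusted p = 0.016, 0.017 and 0.026), and with SNF5 by 0.42, 0.46 and 0.32 (adjusted p = 0.0098, 0.0048 and 0.012). WDR43 had −0.12 with OmoMYC (adjusted p = 0.18) and −0.03 with SNF5 (adjusted p = 0.72) despite its strong peak. None of the linked nucleolar genes was higher with SNF5 than with OmoMYC and 4 were lower. Without replicate 1 or replicate 2, none was lower with OmoMYC, and 10 and 4 were lower with SNF5.

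Host genes of small nucleolar RNAs carry guide RNAs for ribosomal RNA modification in their introns, and 8 of 13 (61.5%) were linked. With OmoMYC 6 of the 8 fell (median −0.41), and with SNF5 1 of 8 (median −0.19). Of the 5 host genes tested without a region, 3 fell with OmoMYC (median −0.45) and 1 with SNF5 (median −0.073). SNHG15 (chr7:45025730-45026567, summit in a non-coding exon) had enrichments of 13.6 and 13.2 with EGFP and 7.97 in the first SNF5 sample. Its normalised gene body counts were 102, 124 and 134 with EGFP, 60.3, 69.6 and 90.4 with OmoMYC and 80.6, 88.1 and 92.3 with SNF5. Again no sample of either construct reached the lowest EGFP sample, and the fold changes were −0.72 (SE 0.08, adjusted p = 0.0073) and −0.46 (SE 0.08, adjusted p = 0.0028), a difference of 0.26 (SE 0.08, adjusted p = 0.048). SNHG8 had 2.05, 4.48 and 2.64 with EGFP and 0.954, 2.24 and 1.39 with OmoMYC, the largest fall with OmoMYC among the genes named here (−1, SE 0.19, adjusted p = 0.026). GAS5 and SNHG7 fell with OmoMYC by 0.41 and 0.50 (adjusted p = 0.040 and 0.038) and had −0.11 and −0.24 with SNF5 (adjusted p = 0.40 and 0.15). SNHG1, which shares its site with SLC3A2, fell by 0.42 with OmoMYC (adjusted p = 0.046).

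The list of aminoacyl-tRNA synthetases, enzymes that charge tRNAs, had 7 of 22 in the table linked (31.8%). It counts AIMP2, a scaffold of the synthetase complex, and leaves out the linked synthetase genes EARS2 and WARS2. Of the 6 tested linked genes of this list, 2 fell with OmoMYC (median −0.27) and 6 with SNF5 (median −0.33). IARS, the isoleucyl-tRNA synthetase, had 431, 430.3 and 407 normalised gene body counts with EGFP, 315, 319 and 402 with OmoMYC and 337, 325 and 340.1 with SNF5; its changes were −0.30 (adjusted p = 0.056) and −0.34 (adjusted p = 0.013). LARS and YARS passed with both constructs (−0.41 and −0.38 with OmoMYC, −0.33 and −0.31 with SNF5). Of the 15 tested without a region, 4 fell with each construct. Of the translation factors, 13 of 42 (31.0%) were linked; 7 of 12 fell with OmoMYC and 4 with SNF5, beside 11 and 12 of 29 without a region. EIF3B was linked and fell with both (−0.45, adjusted p = 0.023, and −0.30, adjusted p = 0.017). Nucleotide and one-carbon enzymes had 12 of 31 linked (38.7%), of which 3 fell with OmoMYC and 6 with SNF5, beside 3 and 6 of 19 without a region. MTHFD2 had 79.8, 101 and 71.5 with EGFP, 58.6, 62.4 and 65.3 with OmoMYC and 60.4, 65.3 and 59.0 with SNF5, all below the lowest EGFP sample (−0.42, adjusted p = 0.033, and −0.44, adjusted p = 0.0077). Subunits of the chaperonin and heat shock chaperones had 10 of 21 linked (47.6%), and 5 of 10 fell with each construct, beside 4 and 6 of 11 without a region. Among the genes listed in the plot of gene lists, no linked gene body rose with either construct. This depends on the lists: EARS2, a linked synthetase gene outside them, rose with OmoMYC, as described below.

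**Figure D5:**
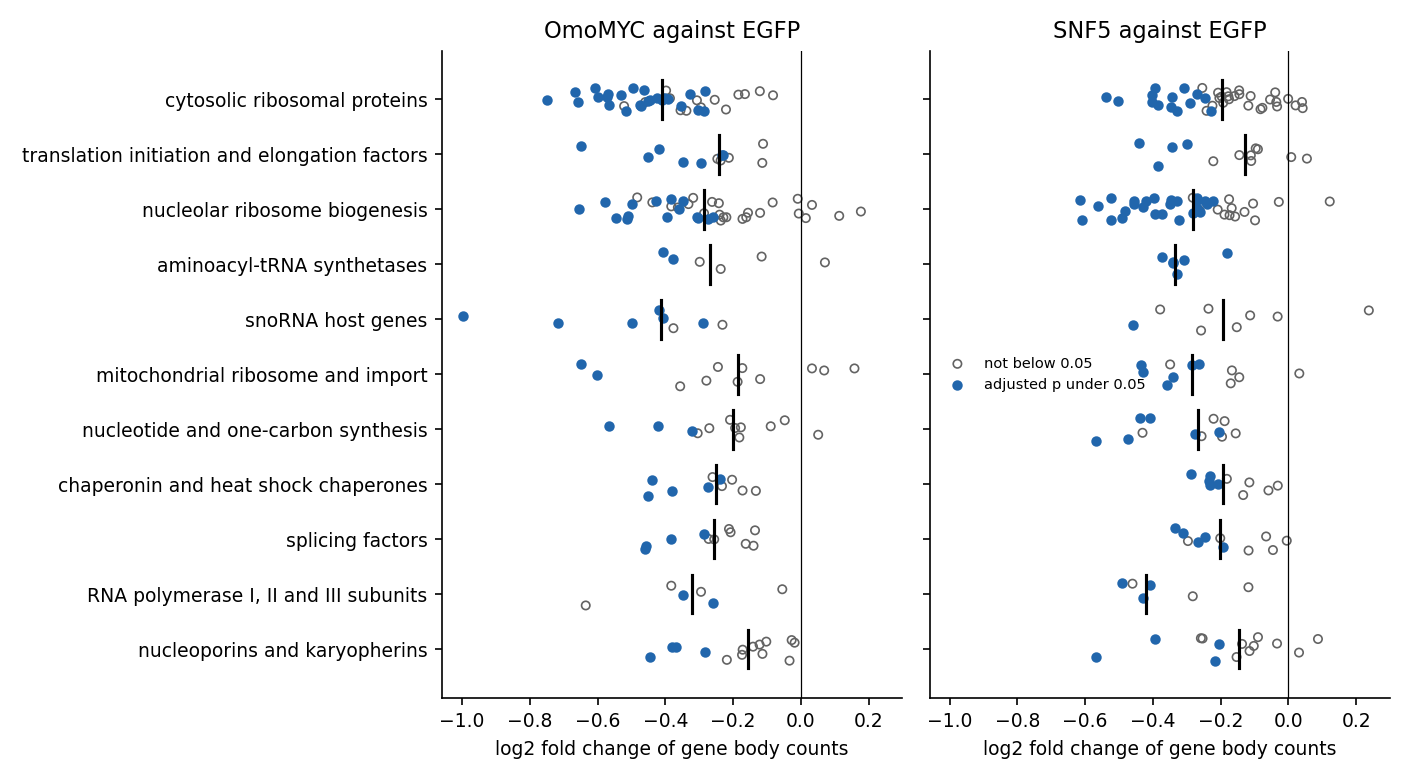
Log2 fold change of gene body counts against EGFP for linked genes of 11 functional groups, with OmoMYC (left) and SNF5 (right). Each point is 1 gene, filled where the adjusted p was under 0.05, and the black bar is the median of the group. Ribosomal proteins lie at a median of −0.41 with OmoMYC and −0.20 with SNF5, and nucleolar factors at −0.29 and −0.28.

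Strong binding in EGFP cells did not go with a fall at each promoter. PLD6 had 24.1, 23.3 and 26.9 normalised gene body counts with EGFP, 15.8, 16.3 and 22.5 with OmoMYC and 14.5, 12.7 and 16.6 with SNF5, without overlap (−0.46, SE 0.10, adjusted p = 0.030, and −0.77, SE 0.10, adjusted p = 0.00069). GTF3A had 36.7, 36.7 and 35.1 with EGFP, 33.0, 30.0 and 38.9 with OmoMYC and 26.2, 26.0 and 22.8 with SNF5. Its OmoMYC samples straddled the EGFP samples and its SNF5 samples were all lower (−0.09, adjusted p = 0.62, and −0.53, adjusted p = 0.0058). The same pattern of a fall with SNF5 and none called with OmoMYC was seen at GET4 (−0.26, adjusted p = 0.013), G6PC3 (−0.49, adjusted p = 0.0084), PRMT1 (−0.43, adjusted p = 0.0042) and CCDC47 (−0.22, adjusted p = 0.027). GDI2 and WDR43 passed with neither. EARS2 rose with OmoMYC, from 34.4, 30.1 and 32.2 to 45.3, 34.0 and 42.3 (0.32, SE 0.07, adjusted p = 0.035), and had 33.9, 25.3 and 30.1 with SNF5 (−0.12, adjusted p = 0.23). Of the other promoters with a peak in both SNF5 samples, ING5 and MFSD3 fell with SNF5 (−0.25 and −0.44, adjusted p = 0.014 and 0.037), and MRPL3, SNX5, ZNF131, SLC7A5P2 and BRWD1 did not pass.

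Few genes rose at these promoters. With OmoMYC the largest rise was CENPT, a protein of the inner kinetochore, which lies on the opposite strand to NUTF2 and overlaps its start, at a shared site with enrichments of 4.02 and 9.82. CENPT had 36.4, 58.2 and 44.6 normalised gene body counts with EGFP, 122, 136 and 106 with OmoMYC and 62.7, 72.4 and 61.1 with SNF5. All OmoMYC samples were above all SNF5 samples, which were above all EGFP samples (1.40, SE 0.10, adjusted p = 0.0014, and 0.51, SE 0.10, adjusted p = 0.0055). NUTF2, a nuclear transport factor on the other strand, had 0.03 with OmoMYC (adjusted p = 0.78) and −0.19 with SNF5 (adjusted p = 0.044). C12orf66, a subunit of a lysosomal complex that regulates mTORC1, NR1D2, a circadian nuclear receptor, and HSF2BP, a binding partner of HSF2, rose with OmoMYC by 0.80, 0.53 and 0.45 (adjusted p = 0.027, 0.023 and 0.035). CENPT passed in each alternative except the fit without the block, while C12orf66, NR1D2 and HSF2BP lost the call when EGFP or OmoMYC replicate 1 or 2 was left out.

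With SNF5 the largest rises were at ABCC4, C1orf198, LOC100506990 and GALNT7; ABCC4 and GALNT7 had EGFP enrichments of 5.43 and 7.68, and 5.32 and 5.71. ABCC4, a transporter that exports cyclic nucleotides and drugs, had 281, 258 and 211 normalised gene body counts with EGFP, 289, 244 and 194 with OmoMYC and 537, 502 and 669 with SNF5. GALNT7, which extends O-linked sugars, had 116, 126 and 133 with EGFP, 117, 118 and 136 with OmoMYC and 246, 246 and 220.1 with SNF5. C1orf198 had 24.3, 24.9 and 24.7 with EGFP, 27.5, 30.0 and 26.4 with OmoMYC and 60.1, 63.2 and 45.5 with SNF5. In each of the 3 genes all SNF5 samples were above all others, by 1.20 (SE 0.15, adjusted p = 0.00069), 0.93 (SE 0.08, adjusted p = 9.6e-05) and 1.18 (SE 0.10, adjusted p = 8.1e-05), and the call was kept in every alternative fit, the one without the block included. The non-coding LOC100506990 rose by 1.16 (adjusted p = 8.2e-05). The largest falls with SNF5 were CCDC85B (−1.32, SE 0.29, adjusted p = 0.0084), NEFH, a neurofilament subunit (−0.85, adjusted p = 0.00034), DNLZ, a mitochondrial chaperone partner (−0.85, adjusted p = 0.024), and KREMEN2, a receptor of Wnt antagonists (−0.81, adjusted p = 0.0016). Of 18 alternative fits, the call was lost in 8 for DNLZ, 2 for CCDC85B and 1 each for NEFH and KREMEN2. NEFH had 19.2, 32.0 and 53.6 with EGFP, 10.4, 17.8 and 34.7 with OmoMYC and 11.4, 17.6 and 28.4 with SNF5, so samples differed more by replicate number than by construct, and within each number both constructs were lower.

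Close to the promoter, where reads were fewer, fewer genes passed the test than in gene bodies. Promoter-proximal counts rose with OmoMYC for 15 of 825 tested linked genes and fell for none, where 1.63% and 0.169% of all 11241 tested genes rose and fell. With SNF5 7 rose and 11 fell, where 2.64% and 1.63% did. Over all genes the median promoter-proximal change with OmoMYC was 0.13 on the log2 scale, with both regions scaled by gene body reads, and the linked genes had 0.11. With each region scaled by its own reads the linked genes had −0.046. CENPT rose most with both constructs (3.17, SE 0.28, adjusted p = 1.1e-09, and 1.92, SE 0.28, adjusted p = 2.6e-05). With OmoMYC it was followed by ALG3, a mannosyltransferase of N-glycan assembly (1.48, adjusted p = 0.00057), and MXD3, a MAX partner that represses MYC targets (1.13, SE 0.25, adjusted p = 0.017). With SNF5, LOC84856 and the nuclear import receptor IPO7 rose by 0.91 and 0.83 (adjusted p = 0.021 and 0.025), and NUP153, a nuclear pore protein, PDHB, a subunit of pyruvate dehydrogenase, and KREMEN2 fell by 0.93, 0.90 and 0.85 (adjusted p = 0.013, 0.026 and 0.025). Between the constructs, 1 linked gene was higher with SNF5 and 4 were lower, where 0.48% and 0.347% of all genes were. Without EGFP replicate 2, CENPT with OmoMYC was the only one of these named calls to remain.

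The pausing index of the linked genes rose with OmoMYC for 63 of 822 tested and fell for none, where 2.18% of all 11171 tested genes rose and 0.0806% fell. With SNF5 it rose for 28 and fell for 6, where 2.02% and 1.64% did. The median change was 0.25 with OmoMYC, with 0.46, 0.38 and −0.019 by replicate number. Over all genes it was 0.14, with 0.37, 0.25 and −0.11. With SNF5 it was 0.079, with 0.21, 0.16 and −0.065, beside 0.014 over all genes, with 0.15, 0.041 and −0.12. In the samples numbered 3 none of these medians rose, while the linked genes lay above all genes within each number. Without the block no pausing index call remained with either construct. Single samples changed these counts: with OmoMYC 1 gene rose without EGFP replicate 2, 1 without OmoMYC replicate 2 and 13 without OmoMYC replicate 1, and with SNF5 0 rose without EGFP replicate 2, 1 without SNF5 replicate 2 and 10 without SNF5 replicate 3. Of the 63 genes, gene body counts were below EGFP in 58 (27 called) and promoter-proximal counts above EGFP in 63 (14 called), with medians of −0.32 and 0.62. When each region was scaled by its own reads, the all-gene median with OmoMYC was −0.015 and 36 linked genes rose. Between the constructs, 1 linked gene had a higher index with SNF5 and 9 a lower one, where 0.125% and 1.1% of all genes did.

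Among ribosomal protein genes, 11 of 39 rose in pausing index with OmoMYC (median 0.64) and none with SNF5. Of the 30 tested without a region, 4 rose with OmoMYC (median 0.57) and 1 with SNF5. RPLP1 had pausing indices of 2.60, 71.4 and 30.1 with EGFP, 6.99, 227 and 35.7 with OmoMYC and 4.78, 73.3 and 27.1 with SNF5. OmoMYC was the highest sample within each number (1.09, SE 0.23, adjusted p = 0.0059), and the change with SNF5 was 0.22 (adjusted p = 0.65). Of the 8 host genes of small nucleolar RNAs, 5 rose with OmoMYC and 2 with SNF5, GAS5 and SNHG7 with both: GAS5 had 6.13, 63.3 and 37 with EGFP, 6.98, 188 and 102 with OmoMYC and 6.71, 217 and 74 with SNF5 (1.09, adjusted p = 0.0038, and 0.98, adjusted p = 0.0054). Of the 5 host genes tested without a region, 2 rose with OmoMYC and 1 with SNF5. FBL also rose with both constructs (0.93, adjusted p = 0.018, and 0.79, adjusted p = 0.037). The largest rise was CENPT with both constructs (1.86, adjusted p = 5.8e-05, and 1.5, adjusted p = 0.00084), in which gene body reads rose as well. C15orf39 rose with both too (1.18, adjusted p = 0.010, and 1.15, adjusted p = 0.0074). ALG3, which shares its site with ECE2, had 3.92, 29.0 and 11.5 with EGFP, 7.57, 125 and 37.1 with OmoMYC and 5.21, 85.7 and 19.2 with SNF5 (1.67, adjusted p = 4.9e-05, and 0.99, adjusted p = 0.014). IPO7 had 5.28, 29.2 and 14.1 with EGFP, 8.20, 62.3 and 26.9 with OmoMYC and 8.4, 70.2 and 24.5 with SNF5, above EGFP within each number (0.91, adjusted p = 0.014, and 0.94, adjusted p = 0.0075). SLC7A5P2 rose with OmoMYC (1.19, adjusted p = 0.0092), but as a pseudogene its reads may come from SLC7A5.

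Pausing index fell with SNF5 in 6 genes. ABCC4, GALNT7 and GOLIM4, a Golgi membrane protein, gained gene body reads (called in all 3), and their pausing index changed by −1.28, −0.98 and −1.27 (adjusted p = 0.0030, 0.0079 and 0.0013). GALNT7 had 24.5, 279 and 155 with EGFP, 37.3, 298 and 102 with OmoMYC and 17.4, 131 and 69.2 with SNF5, the lowest of the constructs within each number. PDHB and NUP153 instead lost promoter-proximal reads, with changes of −0.89 and −0.82 in pausing index (adjusted p = 0.026 for both), while VMP1 (−0.84, adjusted p = 0.022), an endoplasmic reticulum protein of autophagy, had neither region called. Without EGFP replicate 2, GOLIM4, GALNT7 and PDHB lost their pausing index calls. So did CENPT and C15orf39 with both constructs, and ALG3 and SLC7A5P2 with OmoMYC. ABCC4 lost its own without EGFP replicate 3 or SNF5 replicate 2.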

How the data were processed

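MYC ChIP-Seq (2 samples per construct), ATAC-Seq (3) and PRO-Seq (3) files deposited by the authors were used; reads were not realigned, and IgG samples were not used here. The members and gene lists were chosen with earlier results of these data known. The authors aligned ChIP-Seq and PRO-Seq reads to hg19 and ATAC-Seq reads to hg38 and used MACS2 to call the peaks of each sample, with q-value limits of 0.01 (ChIP) and 0.001 (ATAC). The deposited peak lists give a fold ratio over local background and −log10 p and q, with no depth. The deposited PRO-Seq table holds raw counts, from alignments of mapping quality 10 or more, per RefSeq transcript in a window near the promoter and along the gene body, next to a density signal in reads per bp made by the authors.

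Starts came from that table (hg19), or from RefSeq for GRCh38; no coordinate was converted. The pausing index is promoter-proximal reads per bp of a 50 bp window over gene body reads per bp. Normalised counts are per 1000000 gene body reads after RLE scaling. Counts were tested with edgeR 4.0.16 in R 4.3.3 (quasi-likelihood, limma 3.58.1) over genes with a mean of at least 10 counts, 1 transcript per symbol, RLE offsets from gene body counts for both regions, a block for replicate number, and p-values adjusted over all genes by Benjamini-Hochberg, at 0.05; the pausing index was the region by construct interaction. DESeq2 1.42.0 was an alternative, with other scalings, filters, blocks, windows and left-out samples. Samples of the same number deviated together: correlations across genes were 0.812 to 0.922 for gene bodies, against −0.764 to 0.287 for other pairs, so the numbers were taken as pairs. The study describes the samples as biological replicates. The p-values measure the spread left among them after the block has taken out differences between replicate numbers. Scripts were tested on simulated data. Other steps used Python 3.11.15, NumPy 2.4.6, pandas 2.3.3 and SciPy 1.17.1.

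Genes named are the 10 regions of highest mean enrichment; those with a peak in both SNF5 samples; per contrast up to 4 higher and 4 lower linked genes by fold change (3 for promoter-proximal counts) among those called, with a mean of at least 50 counts and 1 sign in all 3 replicate numbers; the 2 most enriched members of each list; genes the study names; and the 3 regions nearest each side of the distance limit, of which 1 is not reported here. RPLP1, RPS12, NOLC1, NOP56, FBL, RRP1, GAS5, SNHG7, LARS, YARS, NUTF2, VMP1, C19orf48 and the 4 ATAC-Seq examples were named after their values were seen.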

Additional observations from a re-analysis of the deposited data

Results flagged for a closer look

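Each result here is a gene at these promoters whose change differed between the constructs in the test of SNF5 against OmoMYC itself (edgeR, adjusted p under 0.05 over all genes). Among the most enriched regions, gene body counts were lower with SNF5 than with OmoMYC at GTF3A (−0.44), GET4 (−0.27), G6PC3 (−0.41), PRMT1 (−0.48) and EARS2 (−0.44), all on the log2 scale. They were also lower at CENPT (−0.89), C12orf66 (−0.91), NR1D2 (−0.31), KREMEN2 (−0.68), MXD3 (−0.72), AIMP2, a scaffold of the tRNA synthetase complex (−0.25), and METTL1, a tRNA methyltransferase (−0.60). METTL1 had 9.44, 12.1 and 9.55 normalised gene body counts with EGFP, 11.2, 14.9 and 12.5 with OmoMYC and 8.14, 9.48 and 7.75 with SNF5, so that each number had the order OmoMYC, EGFP, SNF5, while neither construct passed against EGFP (adjusted p = 0.085 and 0.059).

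Gene body counts were higher with SNF5 than with OmoMYC at SLC7A5P2 (0.46), RPLP2 (0.36), SNHG15 (0.26), PABPC1, the poly(A)-binding protein (0.30), ABCC4 (1.25), C1orf198 (1.00), LOC100506990 (0.75) and GALNT7 (0.94). Promoter-proximal counts were lower with SNF5 at CENPT (−1.25) and ALG3 (−0.92). The pausing index was lower with SNF5 at ABCC4 (−1.29) and GALNT7 (−0.93).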

How the results depend on the processing

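A reciprocal overlap of at least 50% left 323 regions, and the share with CACGTG was then 56.7%; within 50 bp and 200 bp of the summit it was 39.4% and 57.5%. Medians over linked genes moved by less than the standard deviation between replicate numbers in each alternative. For OmoMYC and SNF5 this was 0.092 and 0.039 in gene bodies, 0.18 and 0.15 near promoters and 0.26 and 0.14 for pausing index. For promoter-proximal counts and the pausing index it exceeded the medians, so it cannot show that these were stable. The pausing index median with SNF5 ran from 0.033 to 0.21. The medians kept their direction, except that of promoter-proximal counts with OmoMYC, which was −0.046 with each region scaled by its own reads. Counts of called linked genes moved as follows. Without the replicate block, there were 0 calls except 3 genes with higher gene body counts with SNF5. DESeq2 gave 15 higher gene bodies with OmoMYC, 6 lower promoter-proximal counts with SNF5, 21 higher pausing indices with OmoMYC and, with SNF5, 8 higher and 2 lower. With each region scaled by its own reads, promoter-proximal counts had 9 higher and 6 lower with OmoMYC and 14 and 41 with SNF5, and the pausing index 36 and 1 with OmoMYC and 56 and 13 with SNF5. With only EGFP and the construct in the fit, there were 15 higher gene bodies with OmoMYC and, with SNF5, 6 lower promoter-proximal counts, and 14 higher and 3 lower pausing indices. TMM scaling gave 17 lower promoter-proximal counts with SNF5, no filter on low counts 17 with SNF5 and 1 with OmoMYC, a mean of at least 50 counts 1 with OmoMYC, and starts within 500 bp 7 lower promoter-proximal counts and 3 lower pausing indices with SNF5. Leaving out samples gave, as lowest and highest counts, gene bodies higher in 1 to 50 and lower in 0 to 480 genes with OmoMYC, 12 to 49 and 45 to 543 with SNF5; promoter-proximal counts 1 to 44 and 0 to 7 with OmoMYC, 0 to 19 and 0 to 87 with SNF5; and pausing index 0 to 152 and 0 to 3 with OmoMYC, 0 to 46 and 0 to 27 with SNF5. The cause of these shifts was not tested. No fold change turned its sign among the named genes chosen by size of change, the ones recomputed in each alternative. Peak lists limit the ChIP-Seq comparison to calls above a threshold, with 2 samples per construct.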

Other observations

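Other gene groups were also found at these promoters; over all tested genes 4.42% fell in gene body counts with OmoMYC and 16.5% with SNF5. Of the splicing factors, 12 of 42 (28.6%) were linked, and 4 of 11 tested fell with OmoMYC and 5 with SNF5, beside 9 and 10 of 29 without a region; SNRPE, a core protein of spliceosomal particles, fell with both (−0.46, adjusted p = 0.034, and −0.31, adjusted p = 0.042, edgeR), while SRSF6 passed in neither gene body test and rose in pausing index with OmoMYC (1.18, SE 0.23, adjusted p = 0.0024). Of the nucleoporins and karyopherins 14 of 46 (30.4%) were linked and 4 of 14 fell with each construct, beside 6 and 8 of 31 without a region. RAN, the GTPase of nuclear transport, was linked and fell with OmoMYC (−0.44, adjusted p = 0.032). Of the RNA polymerase subunits 6 of 30 were linked, and POLR1B, of the polymerase that makes ribosomal RNA, fell with both (−0.35, adjusted p = 0.027, and −0.43, adjusted p = 0.0022). POLR3D, of the polymerase that makes tRNAs, fell with SNF5 (−0.49, adjusted p = 0.017). The mitochondrial ribosome and import list had 12 of 85 linked (14.1%), the proteasome 4 of 34 (11.8%), DNA replication 3 of 44 (6.82%) and glycolysis 4 of 17. The chaperonin subunits CCT3 and CCT7 fell with SNF5 by 0.23 each (adjusted p = 0.013 and 0.021), and CCT3 also with OmoMYC (−0.24, adjusted p = 0.038). PSMB3, a proteasome subunit, and POLD2, of DNA polymerase delta, fell with SNF5 by 0.34 and 0.43 (adjusted p = 0.0080 and 0.013). RNPS1, which marks spliced RNA, fell with both (−0.29, adjusted p = 0.049, and −0.25, adjusted p = 0.031). CCT2, TIMM13, MTHFD1L, PSMD9, DBF4 and ENO1 passed with neither construct. LDHA, which makes lactate, fell with SNF5 (−0.36, adjusted p = 0.0050) and had −0.22 with OmoMYC (adjusted p = 0.077). In the MYC, MAX and MXD network 2 of 12 genes were linked, the MAX partners MXD1 and MXD3: MXD1 fell with OmoMYC (−0.44, adjusted p = 0.030) and MXD3 with SNF5 (−0.57, adjusted p = 0.0041). SMARCC1, which encodes another core subunit of SWI/SNF, fell with SNF5 (−0.19, SE 0.05, adjusted p = 0.015) and had −0.14 with OmoMYC (adjusted p = 0.091).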
